A study of Mus musculus with 2 samples.

Results

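The small proline-rich protein (Sprr) genes studied here are Sprr1a, Sprr1b, Sprr2d, Sprr2e, Sprr2h, Sprr2i and Sprr3. They were taken by name, as 7 of the 18595 genes of a single-cell RNA-seq table of the mouse esophagus, and were followed in the 5 epithelial clusters numbered 4, 9, 13, 14 and 15 by the authors. The table holds 14 Sprr genes, and the 7 others serve as comparison. In all, 1 library came from control mice with the genotype Keap1 floxB/floxB and 1 from K5CreERT2::Keap1 floxB/floxB mice, called Keap1 cKO, so both carried the floxB alleles and only the second carried the Cre. K5CreERT2 is a tamoxifen-inducible Cre recombinase driven by the promoter of keratin 5, a keratin of the basal layer, and Keap1 is the adaptor that directs the transcription factor NRF2 to degradation. Both groups were on a mixed C57BL/6J and BALB/c background. The muscle layer was taken off, the remaining tissue was dispersed with 0.25% trypsin-EDTA and a gentleMACS instrument, and polyadenylated RNA was tagged at its 3′ end on the 10x Chromium platform. How many mice went into each library, how old they were and when Cre was induced is unknown here. With 1 library per genotype there was no test: intervals are 95% and cover counting error only, and differences between the libraries cannot be told apart from differences between the genotypes.

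Sprr proteins are short, rich in proline, glutamine and lysine, and are joined by transglutaminases to loricrin, involucrin and one another in the cornified envelope, the protein shell that replaces the membrane of terminally differentiating squamous keratinocytes. Sprr1 and Sprr3 are normally made in the stratified epithelium of the esophagus and forestomach, and many Sprr2 genes are inducible by stress, inflammation or injury. The genes lie together in the epidermal differentiation complex, a cluster of genes for late keratinocyte differentiation that also holds the S100, late cornified envelope and filaggrin-type genes.

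All 7 genes are protein coding and lie on mouse chromosome 3 (mm10, GENCODE vM21). The 4 Sprr2 genes lie on the plus strand in the order Sprr2d (chr3:92339140-92340873), Sprr2e (chr3:92352143-92353449), Sprr2h (chr3:92385685-92387324) and Sprr2i (chr3:92407991-92409271). They are followed on the minus strand by Sprr1b (chr3:92436809-92438789), Sprr3 (chr3:92456502-92458720) and Sprr1a (chr3:92483952-92485895). The promoter stretches below, from the RefSeq windows of GRCm38.p6, are shown for the short motifs that were searched in them. Each runs 5′ to 3′ on the strand of its gene from base 210 to base 21 before the start, at chr3:92338930-92339119 (plus) for Sprr2d, chr3:92385475-92385664 (plus) for Sprr2h, chr3:92407781-92407970 (plus) for Sprr2i, chr3:92485902-92486091 (minus) for Sprr1a, chr3:92438800-92438989 (minus) for Sprr1b and chr3:92458741-92458930 (minus) for Sprr3. Capitals mark matches to TGANTCA, the AP-1 type motif, and to ATTTGCAT, the octamer type motif.
Sprr2d: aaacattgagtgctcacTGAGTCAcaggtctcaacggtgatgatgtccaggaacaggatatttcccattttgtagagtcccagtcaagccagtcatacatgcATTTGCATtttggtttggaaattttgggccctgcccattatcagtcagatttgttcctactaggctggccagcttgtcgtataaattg
Sprr2h: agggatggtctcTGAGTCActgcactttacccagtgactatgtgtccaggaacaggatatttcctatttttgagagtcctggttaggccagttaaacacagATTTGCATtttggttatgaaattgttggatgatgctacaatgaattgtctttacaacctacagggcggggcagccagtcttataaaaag
Sprr2i: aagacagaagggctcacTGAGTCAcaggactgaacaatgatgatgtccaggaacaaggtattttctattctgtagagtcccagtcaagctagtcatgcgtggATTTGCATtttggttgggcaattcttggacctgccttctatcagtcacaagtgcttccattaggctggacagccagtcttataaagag
Sprr1a: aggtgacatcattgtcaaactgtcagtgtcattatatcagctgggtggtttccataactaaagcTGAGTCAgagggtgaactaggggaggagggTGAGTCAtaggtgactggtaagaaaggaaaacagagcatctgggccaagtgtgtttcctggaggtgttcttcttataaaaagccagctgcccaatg
Sprr1b: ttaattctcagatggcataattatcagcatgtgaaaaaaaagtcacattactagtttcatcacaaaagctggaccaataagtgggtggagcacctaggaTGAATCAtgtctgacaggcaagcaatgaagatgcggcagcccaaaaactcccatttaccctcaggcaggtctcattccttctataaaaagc
Sprr3: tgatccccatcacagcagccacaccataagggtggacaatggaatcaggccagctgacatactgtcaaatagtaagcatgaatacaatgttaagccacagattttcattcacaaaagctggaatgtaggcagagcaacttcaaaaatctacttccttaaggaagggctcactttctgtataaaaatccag

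TGANTCA was matched in the 300-base windows of 6 of the 7 genes, all but Sprr3, and in 7.81% of the 32851 promoter windows. It began 193 bases before the start in Sprr2d, Sprr2e and Sprr2i and 198 bases before it in Sprr2h. Sprr1b held 1 match, 111 bases before the start, and Sprr1a held 2, at 146 and 116 bases. ATTTGCAT, a motif chosen after the sequences had been seen, was matched in all 4 Sprr2 genes, 108 bases before the start (109 in Sprr2h), and in 1.74% of all windows. The antioxidant response core TGACNNNGC and its longer form TGACTCAGC were matched in Sprr1a alone of the 7, on the other strand and over the first of its TGANTCA matches, and in 12.4% and 0.454% of all windows. Both strands were searched. The Sprr2d and Sprr2e windows were 88% identical without gaps, and they were 71.7% and 72.3% identical to Sprr2i, so their matches lie in shared sequence. Sprr2h was 35.3% to 40% identical to these 3 without gaps. Of the other Sprr genes with a window, Sprr2b, Sprr2f and Sprr2k held both TGANTCA and ATTTGCAT, while the windows of Sprr2a1, Sprr2a2 and Sprr2a3 held neither. A link between these motifs and the differences between the libraries was not tested.

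**Figure D1:**
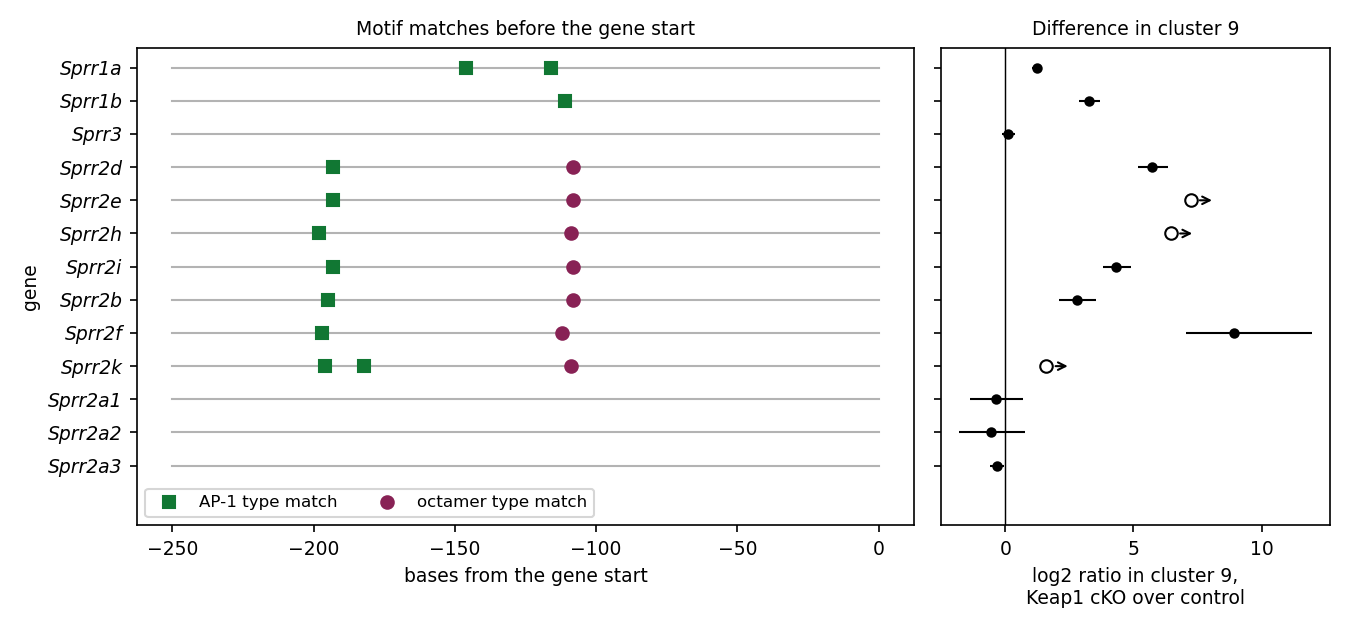
Motif matches in the promoter windows of 13 Sprr genes (left, in bases from the gene start at 0; squares are TGANTCA, circles ATTTGCAT) and the log2 ratio of CPM in cluster 9, Keap1 cKO over control (right). Bars are 95% counting intervals, and open circles with an arrow are genes at 0 UMIs in the control, drawn with the control set to 3 counts. Sprr3 and the 3 Sprr2a genes have no mark on the left. Sprr2j-ps, with a log2 ratio of 3.30 in cluster 9, is not drawn.

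The whole table held 2472 control and 2381 Keap1 cKO cells with 500 to 100520 UMIs (unique molecules) each, and 5 cell barcodes occurred in both libraries. The clusters differed in cell number and depth: cluster 9 had 114 and 140 cells (control, then Keap1 cKO) with a median of 1441.5 and 2456.5 UMIs, cluster 4 had 313 and 93 cells, cluster 13 had 134 and 61, cluster 14 had 42 and 40 and cluster 15 had 75 and 7. Cluster 10, which the authors also annotate as epithelial, was not among the 5. The 8 basal markers, Krt5 among them, summed to 18421 and 13575 CPM (UMIs per 1000000 UMIs of the cluster) in cluster 4 and to 2489 and 4449 CPM in cluster 9. Krt13, a suprabasal keratin, stood at 24810 and 14084 CPM in cluster 13 and at 40523 and 9141 CPM in cluster 9. The 8 measured cornified markers summed to 4397 and 6817 CPM in cluster 9 and to 7272 and 4004 CPM in cluster 14, but to between 49.8 and 94.2 CPM in clusters 4, 13 and 15. Keap1 itself was sparse, with 495 and 151 UMIs in cluster 4 (76.2 and 57.8 CPM) and 20 and 10 UMIs in cluster 9, and 3′ tags outside a deleted exon would not show the deletion.

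Most Sprr RNA of the control library was in clusters 14 and 9, with 48.4% and 41.6% of the UMIs of the 7 genes. In the Keap1 cKO library cluster 9 held 73.4% and cluster 14 held 11.3%. In cluster 9 the 7 genes together gave 615 control UMIs (1387 CPM, 1279 to 1501) and 9052 Keap1 cKO UMIs (9276 CPM, 9086 to 9469), a 6.69-fold higher level in Keap1 cKO (6.16 to 7.27). All 7 reached 20 UMIs over both libraries there, 2 of them (Sprr2e and Sprr2h) through the Keap1 cKO library alone. Of the 7, 6 were at least 2-fold higher in Keap1 cKO and none was at least 2-fold lower, where 12.3% of all 4713 genes with 20 UMIs were at least 2-fold higher and 18% at least 2-fold lower. The exception was Sprr3, whose ratio depended on the cells used. The log2 ratio of genes with 20 UMIs in each library had a median of -0.27, 0.12 and 0.17 in clusters 9, 14 and 15, and relative to that of cluster 9 the Sprr sum there stood at 3.01. The median log2 ratio of the 7 was 4.32, with genes at 0 set to 3 counts, against -0.15 for all genes tested.

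**Figure D2:**
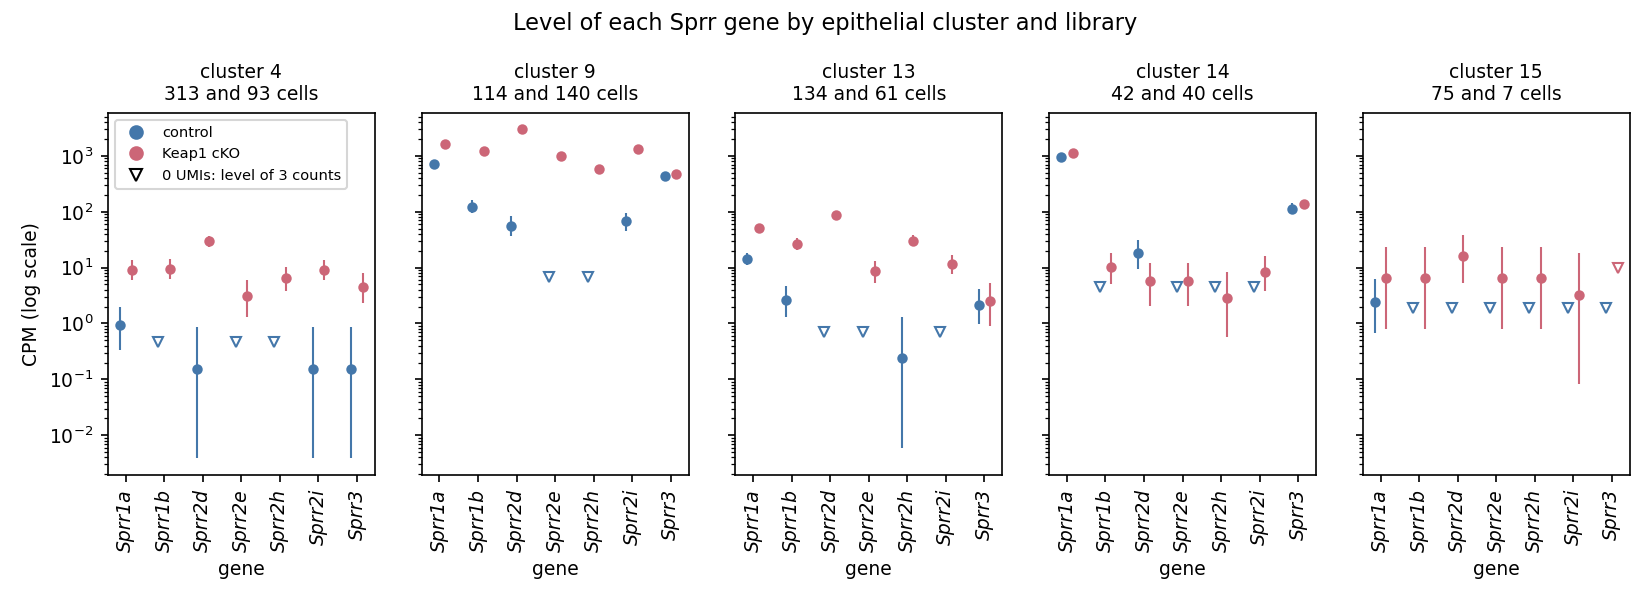
Level of each of the 7 Sprr genes in the 5 epithelial clusters of both libraries, in CPM on a log axis, with 95% exact Poisson intervals. The 4 Sprr2 genes and Sprr1b reach 593 to 2978 CPM in cluster 9 of the Keap1 cKO library, while Sprr1a and Sprr3 are also high in cluster 14 of both libraries.

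Among the 4 Sprr2 genes, Sprr2d had the most UMIs in the Keap1 cKO library. It counted 25 UMIs in control cluster 9 (56.4 CPM, 36.5 to 83.2) and 2906 in Keap1 cKO cluster 9 (2978 CPM, 2871 to 3088), a log2 ratio of 5.72 (5.16 to 6.35). Sprr2i counted 30 and 1322 UMIs there (67.6 and 1355 CPM), a log2 ratio of 4.32 (3.80 to 4.90). Sprr2d and Sprr2i were therefore detected in the control cells, at low level. Sprr2e had 0 UMIs in control cluster 9 and 988 in Keap1 cKO (1012 CPM), at least 149.7-fold higher taking 3 counts in the cluster as the control's floor. Sprr2h also had 0 control UMIs and 579 in Keap1 cKO (593 CPM, 546 to 644), at least 87.7-fold higher. For both, the control depth of 443500 UMIs in cluster 9 allows a level of up to 6.76 CPM. Without the 10 cells with the most Sprr UMIs of each library, the log2 ratios with this floor were 2.999 for Sprr2e and 3.58 for Sprr2h. The log2 ratio of Sprr2i over these cells was 6.90. All 30 control UMIs of Sprr2i came from 6 of 114 cells, so that value rests on few control UMIs.

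Cluster 9 held 88.4% of the Sprr2e UMIs and 76.2% of the Sprr2h UMIs of the Keap1 cKO library, and cluster 13 held 1.88% and 9.74%. In cluster 13, Sprr2e counted 0 and 21 UMIs (8.68 CPM in Keap1 cKO), 12.2-fold higher with the control set to 3 counts (lower end of the interval 9.04-fold). Sprr2h counted 1 and 74 UMIs in cluster 13 (0.24 and 30.6 CPM), a log2 ratio of 7.01 with a wide interval (4.48 to 12.33). In Keap1 cKO cells of cluster 13, Sprr2h had a UMI in 31 of 61 cells and Sprr2e in 11 of 61. Close copies could share reads: of the 451 windows of 50 bases in the last 500 bases of each transcript, 5 of Sprr2e also occur in Sprr2f or Sprr2i and 12 of Sprr2i in Sprr2e or Sprr2c-ps, while Sprr1a, Sprr1b, Sprr2d, Sprr2h and Sprr3 shared none.

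Of the Sprr1 genes, Sprr1b differed more between the libraries than Sprr1a. In cluster 9 Sprr1b counted 55 and 1179 UMIs (124 and 1208 CPM), a log2 ratio of 3.28 (2.89 to 3.70), which was 4.19 without the 1 cell with the most Sprr UMIs of each library. Sprr1a counted 314 and 1623 UMIs (708 CPM, 632 to 791, and 1663 CPM, 1583 to 1746), a log2 ratio of 1.23 (1.06 to 1.41). The 2 intervals do not overlap. Sprr1a had its highest control level in cluster 14, and 60.1% of the control UMIs of the gene were there, while Sprr1b had 0 UMIs in control cluster 14. The ratio of Sprr1a in cluster 9 was 2.72 on the log2 scale when the 10 cells with the most Sprr UMIs of each library were left out. The 10 cells highest for Sprr1a held 92.0% of its control UMIs and 70.0% of its Keap1 cKO UMIs in this cluster.

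Sprr3, an abundant envelope protein of the normal esophagus, had near the same summed level in both libraries in cluster 9, which did not hold under other settings. It counted 191 UMIs in the control (431 CPM, 372 to 496) and 455 in Keap1 cKO (466 CPM, 424 to 511), a log2 ratio of 0.11 (-0.13 to 0.37). With every cell weighted equally the log2 ratio was 1.95, without cells of mixed type 1.87 and without the 10 cells with the most Sprr UMIs 1.29, and in these 3 all 7 genes were at least 2-fold higher. Over cells of at least 2000 UMIs it was -0.16, so the level of Sprr3 depends on which cells count. Cells of mixed type were those with any UMI of Ptprc, Cd3e or Col1a1, or with more than 0.5% of their UMIs from Lyz2 or Hbb-bs. Deeper cells meet this rule more readily, so a cell left out by it need not be a doublet. At full depth Sprr3 had a UMI in 19 of 114 control and 46 of 140 Keap1 cKO cells (16.7% and 32.9%). In cluster 13 Sprr3 counted 9 and 6 UMIs and in cluster 14 it counted 75 and 147 (114 and 139 CPM), with intervals of the ratio that include no difference in both.

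**Figure D3:**
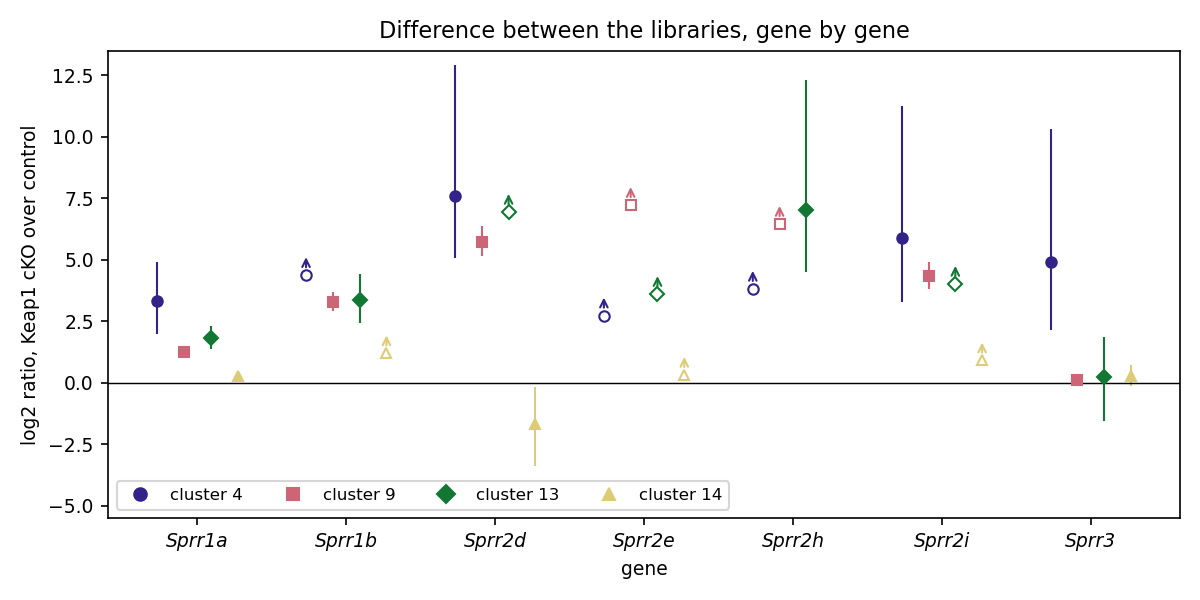
Log2 ratio of CPM, Keap1 cKO over control, for each Sprr gene with its 95% counting interval by cluster. Open symbols with arrows are genes at 0 UMIs in the control, drawn with the control set to 3 counts. The Sprr2 genes and Sprr1b lie far above 0 in clusters 4, 9 and 13, and Sprr3 lies at 0.11 in cluster 9.

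In cluster 13 the 7 genes together stood at 19.5 CPM (82 UMIs) in the control and 220 CPM (532 UMIs) in Keap1 cKO, a log2 ratio of 3.49 (3.16 to 3.85). There 6 of the 7 reached 20 UMIs and all 6 were at least 2-fold higher, against 7.04% of the 9875 genes tested (6.32% were at least 2-fold lower, and no Sprr gene was). Of these, 3 (Sprr2d, Sprr2e and Sprr2i) were at 0 in the control and Sprr2h had 1 control UMI. Sprr2d, Sprr2e, Sprr2i and Sprr2h therefore passed the minimum through Keap1 cKO alone and could only be counted as higher. Sprr2d gave the most UMIs, 0 and 213 (88.0 CPM in Keap1 cKO), 123-fold higher with the control set to 3 counts (lower end of the interval 99.4-fold). Sprr1a counted 61 and 125 UMIs (14.5 and 51.6 CPM), a log2 ratio of 1.83 (1.38 to 2.30), and Sprr1b 11 and 65 UMIs, a log2 ratio of 3.36. Sprr1b had the higher ratio of the 2 Sprr1 genes in both cluster 9 and cluster 13. Levels in cluster 13 were far below those of cluster 9 in the same library: the 7 genes summed to 220 against 9276 CPM. In the red blood cells of that library, which should not make Sprr, they summed to 48.0 CPM. Sprr2i stood at 11.6 CPM in both, and Sprr2e at 8.68 CPM in cluster 13 and 4.96 CPM in red blood cells. Per cell, Sprr2i had 0.46 UMIs in cluster 13 and 0.12 in red blood cells, and Sprr2e had 0.34 and 0.05. Sprr1a, Sprr1b, Sprr2d and Sprr2h stood at 26.9 to 88.0 CPM in cluster 13 and 0.83 to 12.4 CPM in red blood cells. In cluster 13 the 6 fibroblast markers also stood at 280 and 1450 CPM and the 6 T cell markers at 7.14 and 80.6 CPM. Without cells of mixed type, which left 28 control and 6 Keap1 cKO cells, the log2 ratio of the Sprr sum in cluster 13 was 2.17.

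In cluster 4 all 7 genes had more UMIs in Keap1 cKO than in the control, from far fewer cells, but few UMIs in all: 9 and 188 (1.39 and 72.0 CPM), a log2 ratio of 5.70 (4.74 to 6.85). Without cells of mixed type, which left 86 control and 26 Keap1 cKO cells, it was 7.21. With the red blood cell level per cell subtracted, 2.72 control and 143 Keap1 cKO UMIs were left, the control too few for a ratio of firm size. Of the 7, 4 reached 20 UMIs (Sprr1a, Sprr1b, Sprr2d and Sprr2i) and all 4 were at least 2-fold higher, against 9.94% of 10956 genes (8.96% were at least 2-fold lower, and no Sprr gene was). The 4 had 6, 0, 1 and 1 control UMIs, so they passed the minimum through Keap1 cKO alone and could only be counted as higher. In CPM, Sprr1a and Sprr2i, at 9.19 each in Keap1 cKO cluster 4, stood near the red blood cells of that library (9.10 and 11.6 CPM). Per cell they had 0.26 UMIs each in cluster 4, against 0.092 and 0.12 in those red blood cells. Sprr2d counted 1 and 78 UMIs, a log2 ratio of 7.60 (5.08 to 12.92) that rests on 1 control UMI; it was 5.22 with cells weighted equally and 4.74 without the 10 cells with the most Sprr UMIs. Sprr1b counted 0 and 25, 20.7-fold higher with the control set to 3 counts (lower end of the interval 15.6-fold). In Keap1 cKO red blood cells, which should not make Sprr, the 7 genes summed to 48.0 CPM, and in cluster 4 to 72.0 CPM. UMIs per cell were 2.02 in cluster 4 and 0.48 in red blood cells, where the median cell had 26254 and 10272 UMIs. Thinned to 1300 UMIs per cell, 5 of 85 Keap1 cKO cells of cluster 4 and 0 of 313 control cells had a Sprr UMI. The Sprr sum of cluster 4 stood close to the red blood cell level in CPM and above it per cell. The part of free RNA in the droplets in that sum was not tested. Sprr2h differed most from the red blood cells per cell, with 0.18 UMIs in cluster 4 and 0.0083 in red blood cells, the latter from 1 UMI in 120 cells. In CPM it stood at 6.51 in cluster 4 and 0.83 in red blood cells. Over all non-epithelial clusters of the Keap1 cKO library it ranged from 0 to 10.7 CPM, with 9.31 CPM (11 UMIs) in cluster 11. The 6 erythroid markers stood at 661 and 3609 CPM in cluster 4 and the 8 cycling markers at 494 and 2249 CPM, and their part was not tested.

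In cluster 14 the libraries stood close together. The 7 genes gave 717 control UMIs (1086 CPM, 1008 to 1169) and 1397 Keap1 cKO UMIs (1318 CPM, 1250 to 1389), most of them Sprr1a. Sprr1a counted 630 and 1215 UMIs (955 and 1146 CPM), a log2 ratio of 0.26 (0.12 to 0.41). Leaving out the 1 cell with the most Sprr UMIs in each library gave -0.04. Only Sprr1a and Sprr3 reached 20 UMIs, and neither was 2-fold apart, where 16.8% of the 7157 genes tested were at least 2-fold higher and 3.67% at least 2-fold lower. Sprr2d counted 12 and 6 UMIs (18.2 and 5.66 CPM), the only negative ratio among the 7 genes, -1.68 (-3.38 to -0.16), and below the minimum of 20. Sprr1b, Sprr2e, Sprr2h and Sprr2i were at 0 in the control and at 3 to 11 UMIs in Keap1 cKO. Sprr2d UMIs per Keap1 cKO cell were 0.15 in cluster 14 and 0.13 in red blood cells, close to one another. The 8 measured gastric and airway secretory markers of cluster 14 summed to 633 and 19782 CPM and the 6 myeloid markers to 297 and 2629 CPM, and the part of these differences was not tested. Without cells of mixed type, which left 24 control and 7 Keap1 cKO cells, the log2 ratio of the Sprr sum was 1.39. In cluster 15, 7 Keap1 cKO cells gave 14 UMIs and 75 control cells gave 4 (46.1 and 2.47 CPM), and no gene reached 20 UMIs, against 7.69% of 7854 genes at least 2-fold higher and 11.7% at least 2-fold lower. The red blood cells of the Keap1 cKO library stood at 48.0 CPM, no lower than its cluster 15. Per cell they had 0.48 Sprr UMIs, and the 7 cells of cluster 15 had 2.

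Depth differed between the libraries, so shares of cells were also taken at 1 fixed depth. At full depth a Sprr UMI was present in 37 of 114 cells of control cluster 9 (32.5%, 24.0 to 41.9) and in 100 of 140 of its Keap1 cKO counterparts (71.4%, 63.2 to 78.7). Thinned to 500 UMIs per cell, with no cell left out, 24 (21.1%, 14 to 29.7) and 73 (52.1%, 43.5 to 60.7) did. Sprr2d was seen in 1 control and 41 Keap1 cKO cells at this depth, Sprr1b in 3 and 43, Sprr2i in 2 and 32, and Sprr1a in 17 and 44. Sprr2e and Sprr2h were seen in 0 control cells and in 11 and 17 Keap1 cKO cells. Sprr3 was seen in 8 and 28 cells (7.02% and 20%), so the share of cells with Sprr3 differed more than its summed level. In cluster 13, thinned to 4900 UMIs, 7 of 131 control cells (3 left out) and 31 of 55 Keap1 cKO cells (6 left out) had a Sprr UMI, against 30 of 134 and 52 of 61 at full depth. Red blood cells held a Sprr UMI in 5 of 178 cases in the control (2.81%) and in 42 of 120 in Keap1 cKO (35%), without thinning (median 10831 UMIs in the control, 10272 in Keap1 cKO).

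**Figure D4:**
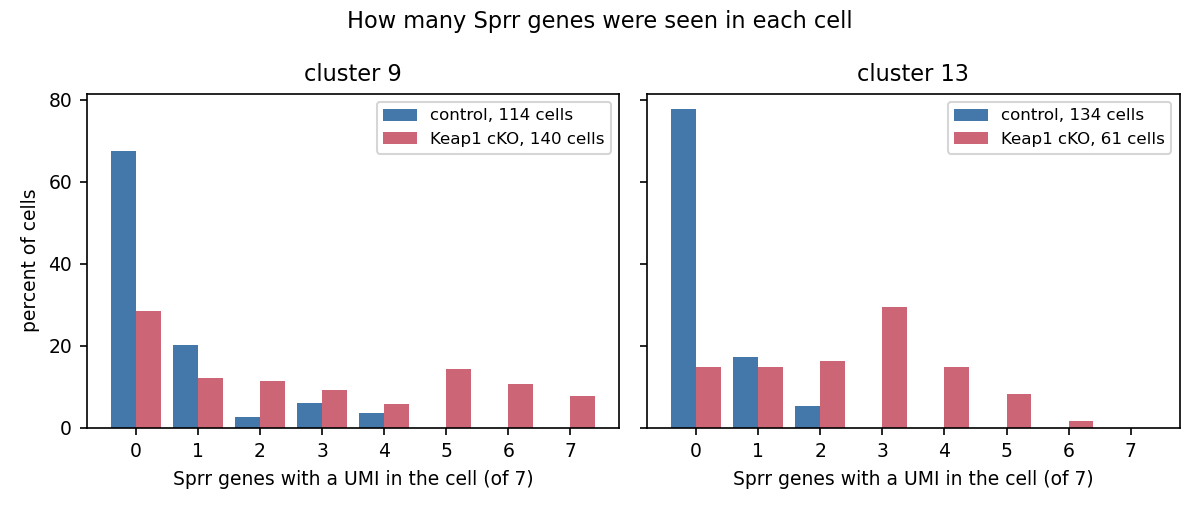
Number of the 7 Sprr genes detected per cell in epithelial clusters 9 and 13, as a share of the cells of each library. In cluster 9, 77 control and 40 Keap1 cKO cells had none, no control cell had more than 4, and 20, 15 and 11 Keap1 cKO cells had 5, 6 and 7.

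The Sprr RNA of cluster 9 was concentrated in part of its cells. Sprr genes made up a median of 0% of a control cell's UMIs and 0.155% of a Keap1 cKO cell's UMIs, with the highest cells at 2.59% and 8.58%. At least 1% was reached by 2 control cells and 33 Keap1 cKO cells (23.6%), and 2 and 8 cells lay between 0.8% and 1.2%. The 10 cells with the most Sprr UMIs held 88.0% and 72.4% of the Sprr UMIs, with 44.4% and 25.2% of all UMIs of the cluster. Ranked by the gene itself, the 10 highest Keap1 cKO cells held 94.7% of the 988 Sprr2e UMIs, with up to 365 in a single cell, and 63.3% of the Sprr1b UMIs. Without the 10 cells with the most Sprr UMIs of each library the log2 ratio of the sum was 3.51, against 2.74 with them.

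**Figure D5:**
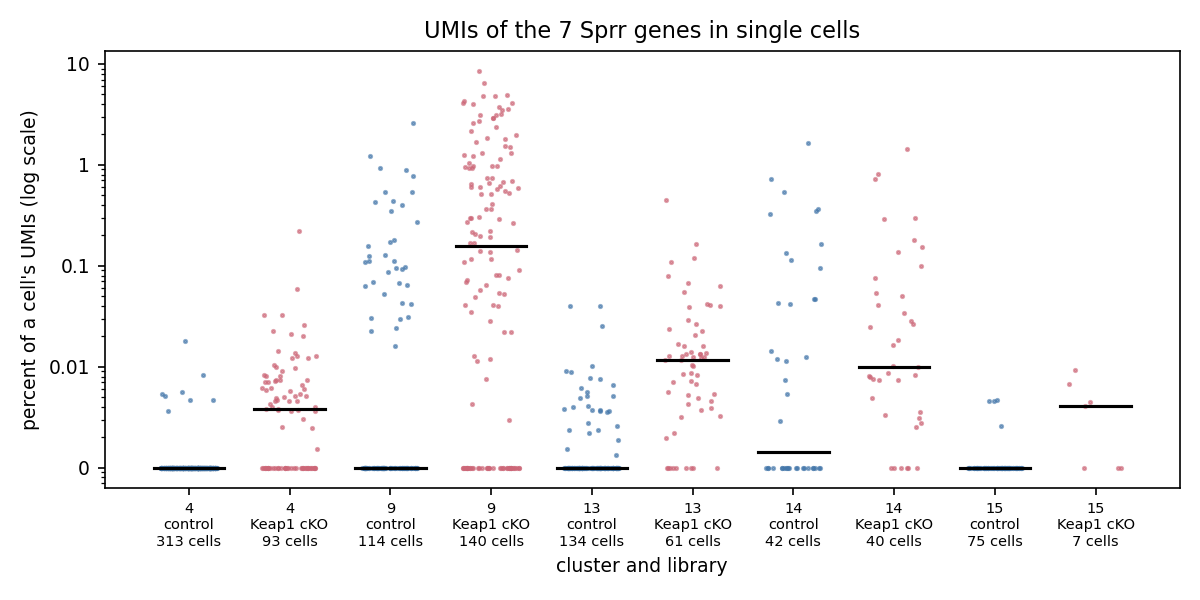
Share of each cell's UMIs from the 7 Sprr genes in the epithelial clusters, 1 point per cell, on a log axis with cells at 0 drawn along the bottom line. Keap1 cKO cells of cluster 9 reach 8.58% and the highest control cell reaches 2.59%.

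The Sprr genes were found together in the Keap1 cKO cells of cluster 9. Sprr2d and Sprr2i were seen in 68 and 60 of 140 cells and together in 48, and their shares of a cell's UMIs had a Spearman rho of 0.72. Sprr1a and Sprr2i had a rho of 0.72 as well, and Sprr1b and Sprr2e, at the other end, 0.20. Sprr2e was seen in 31 cells, 26 of them with Sprr2d. These are descriptions over 140 cells of 1 library that share the cell's depth as denominator. The summed Sprr share had a Pearson r of 0.67 and a Spearman rho of 0.64 with the share of S100a8, a gene of the same complex that encodes a subunit of calprotectin. With the summed share of the NRF2 target genes the values were -0.26 and -0.27, and with Krt4 plus Krt13 0.09 and 0.18. These values did not hold across libraries and clusters: the Spearman rho with S100a8 was 0.17 in control cluster 9 and 0.05 and -0.02 in Keap1 cKO clusters 4 and 13, and that with the NRF2 targets was 0.25 in control cluster 9 and in control cluster 13.

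Over the 10 cluster-by-library sums the likeness of the 7 genes, taken as log2(CPM + 10), was uneven. Sprr1a and Sprr3, with high levels in clusters 9 and 14 of both libraries, had a Pearson r of 0.95. Sprr1b and Sprr2i had an r of 0.99 and Sprr2e and Sprr2h 0.98, while Sprr1a and Sprr2h had 0.40. The sums share library and depth, so these are descriptions over 10 points. Of 4630 other genes, the most like the sum of the 4 Sprr2 genes were Cstdc5 (0.97), Cops9 (0.95) and Il1f6 (0.94), an interleukin-1 family cytokine of epithelia. Those most like Sprr1a plus Sprr1b were Trex2, Id1 and Prdx5 (0.97 each), and those most like Sprr3 were Crct1 (0.98), a cysteine-rich gene of the same complex, Ppdpf (0.96) and Gskip (0.96). A high r over the 10 sums did not mean a like difference between the libraries. In cluster 9 (control, then Keap1 cKO) Cops9 stood at 225 and 293 CPM, Prdx5 at 706 and 847 and Id1 at 158 in both. Cstdc5 stood there at 20.3 and 318 CPM, Trex2 at 120 and 669 and Il1f6 at 174 and 919.

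The 7 other Sprr genes of the table did not follow one pattern in cluster 9, where 4 of the 7 were at least 2-fold higher and none lower. Of all 4713 genes tested there, 12.3% were at least 2-fold higher and 18% at least 2-fold lower. Sprr2f and Sprr2k, with 2 and 0 control UMIs, passed the minimum through Keap1 cKO alone and could only be counted as higher. Sprr2f counted 2 and 2133 UMIs (4.51 and 2186 CPM), a log2 ratio of 8.92 (7.07 to 11.97). In cluster 14 the same gene counted 420 and 6 UMIs, of which 399 came from 1 control cell. Sprr2b counted 19 and 287 UMIs, a log2 ratio of 2.78, Sprr2j-ps 11 and 239, a log2 ratio of 3.30, and Sprr2k 0 and 20. The Sprr2a genes had log2 ratios of -0.32 (-0.59 to -0.04) for Sprr2a3, -0.36 for Sprr2a1 and -0.55 for Sprr2a2, the last pair with intervals that include 0. With every cell weighted equally Sprr2a3 stood at 0.72 and Sprr2a2 at 0.40, so no direction is given for them. Sprr2a3 was higher in Keap1 cKO in clusters 4, 13 and 15, with log2 ratios of 2.45, 2.29 and 3.48, and in cluster 15 122 of its 130 Keap1 cKO UMIs came from 1 cell. All 451 windows of 50 bases at the 3′ end of Sprr2a1 and of Sprr2a2, and 351 of those of Sprr2a3, also occur in another Sprr gene, so the split of UMIs among these 3 genes is uncertain.

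The counts of this paragraph stand beside 12.3% of all 4713 genes at least 2-fold higher in cluster 9 and 18% at least 2-fold lower. Among the partners of Sprr in the envelope, 13 of the 14 measured genes reached 20 UMIs in cluster 9. Of these, 3 were at least 2-fold higher and 6 at least 2-fold lower, with a median of -0.72. Csta1, a cystatin, counted 79 and 873 UMIs, a log2 ratio of 2.33, and Cstb had 2.16. Slpi, a secreted protease inhibitor, had 1.13, and Krtdap, a differentiation-associated keratinocyte protein, had -1.29. Of 21 other measured genes of the epidermal differentiation complex, 16 reached 20 UMIs. Of these 16, 12 were at least 2-fold higher and none lower, with a median of 1.93. In the control, 8 of the 21 were at 0, and any of these that reached 20 UMIs could only be counted as higher. S100a8 counted 160 and 20607 UMIs (log2 ratio 5.87), S100a9 had 5.63, and Lce3d, a late cornified envelope gene, counted 0 and 647. None of the 3 crosslinking transglutaminases tested was 2-fold apart: Tgm1 had 0.61 and Tgm3 -0.91. Of 17 transcription factors listed as regulators of Sprr genes, 3 were at least 2-fold higher and 1 lower, near the 12.3% of all genes that were higher, with Fos at 4 and 37 UMIs and Jun at 14 and 95 UMIs. Of 19 NRF2 targets 15 were at least 2-fold higher and none lower, with a median of 3.28.

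Markers of other states and cell types also differed between the libraries in cluster 9. The 7 suprabasal markers summed to 98480 CPM in the control and 22921 CPM in Keap1 cKO, with log2 ratios of -3.43 for Krt4 and -2.15 for Krt13. Krt14, a basal keratin, counted 59 and 3766 UMIs, 133 and 3859 CPM. The 6 erythroid markers summed to 575 and 3139 CPM. The 6 T cell markers summed to 6.76 and 194 CPM, with 4 of the 6 at 0 in the control and none at 0 in Keap1 cKO, and Trdc, a T cell receptor gene, counted 1 and 129 UMIs. The neutrophil markers stood at 0 and 3.07 CPM. Without cells that held a UMI of Ptprc, Cd3e or Col1a1, or more than 0.5% of their UMIs from Lyz2 or Hbb-bs, the log2 ratio of the summed Sprr genes in cluster 9 was 3.45. The part of the keratin, T cell and erythroid differences in the Sprr difference was not tested.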

How the data were processed

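Counts were recovered from 1 deposited table of natural log values, ln(UMIs / total × 10000 + 1) per cell, per the values themselves; the authors' cluster numbers and cell types came from a second deposited table. Per the submitters' processing notes, the tools were Cell Ranger 6.0.1, R 4.1.1 and Seurat 4.0.2 with mm10; the authors' settings and filters are unknown here. The smallest step of each cell gave whole UMIs (within 0.01) for 100% of positive values, and cell sums on the deposited scale were 10000. UMIs were summed per cluster and library and divided by all UMIs of those cells (CPM). A CPM interval is exact Poisson, a ratio interval exact conditional binomial and a share interval Clopper-Pearson. Tags count molecules at the 3′ end, so CPM was not divided by length. Genes with 20 UMIs over both libraries were counted, at 2-fold. Cells were thinned with a fixed seed to the largest multiple of 100 UMIs that at least 90% of cells in both libraries reached. No doublet caller was run; cells of mixed type were left out in an alternative. The ratios were checked on simulated data. The planned protein comparison was not made, as protein sequences were not used here. The members, lists and rules were chosen with earlier results of these data known. Named genes were the 7 Sprr genes, the other Sprr genes, Krt5, Krt14, Krt4, Krt13 and Keap1, the most abundant and most different genes of each list in cluster 9, and the 3 genes most like each Sprr group among those with 100 UMIs and 50 CPM in 1 sum. Python 3.11.15, NumPy 2.4.6, pandas 2.3.3 and SciPy 1.17.1 were used.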

Additional observations from a re-analysis of the deposited data

Results flagged for a closer look

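Sprr2d had a log2 ratio of -1.68 in cluster 14, with 12 control and 6 Keap1 cKO UMIs, and was higher in Keap1 cKO in the 4 other clusters. In cluster 15 it counted only 0 and 5 UMIs, and its 16.5 CPM in Keap1 cKO stood near the 12.4 CPM of the red blood cells. Per Keap1 cKO cell it had 0.71 UMIs in cluster 15, over 7 cells, and 0.13 in red blood cells. The clusters differ in direction, and the difference between them was not tested, with 1 library per genotype. The 12 control UMIs came from 3 of 42 cells and the 6 Keap1 cKO UMIs from 6 of 40 cells.

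Outside the 5 epithelial clusters the 7 Sprr genes summed to 53 UMIs in 1794 control cells and 1146 UMIs in 2040 Keap1 cKO cells, 3.10 and 61.4 CPM, a log2 ratio of 4.31 (3.91 to 4.73). These cells were outside the comparisons of the report. In the Keap1 cKO library they ranged from 34.3 CPM in cluster 18 to 162 CPM in cluster 10, a further cluster that the authors annotate as epithelial, and the red blood cells of cluster 7 stood at 48.0 CPM.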

How the results depend on the processing

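No paired analysis was possible because there is 1 library per genotype. Of 38 counts of genes at least 2-fold higher 34 stayed within 1.5 times of the reported count; of 37 values of the summed ratio 22 stayed within the counting interval of the reported one, 13 lay outside it and 2, both in cluster 14, changed sign. With every cell weighted equally the log2 ratio of the sum was 3.10 in cluster 9, 4.03 in cluster 13 and 0.039 in cluster 14. Median-of-ratios scaling gave 3.01 in cluster 9, and a total without the 50 most abundant genes gave 0.094 in cluster 14. Subtracting free RNA gave 7.03 in cluster 4, over 2.72 control and 143 Keap1 cKO UMIs. Leaving out cells of mixed type gave 3.45, 2.17, 1.39 and 7.21 in clusters 9, 13, 14 and 4, from as few as 6 Keap1 cKO cells in cluster 13 and 7 in cluster 14. Without the cell with the most Sprr UMIs the sum was 2.87 in cluster 9 and -0.034 in cluster 14. Without the 10 such cells, an alternative chosen after seeing the data, it was 3.51, 3.98 and -0.16 in clusters 9, 13 and 14. The count in cluster 9 was 7, with Sprr3 included, with cells weighted equally, without cells of mixed type and without the 10 cells. It was 7 in cluster 4 and 1 in cluster 14 with no minimum of UMIs, 1 in cluster 14 without cells of mixed type and 1 in cluster 4 without the 10 cells. Sprr1a in cluster 14 turned to -0.11 with cells weighted equally, to -0.044 without the top cell and to -0.61 without the 10 cells. Sprr3 turned to -0.23 in cluster 14 without the top cell, and to -0.16 in cluster 9 over cells of at least 2000 UMIs. The cause was not tested. Thinned to 250 UMIs per cell, a Sprr UMI was left in 11.4% (control) and 47.1% (Keap1 cKO) of cluster 9. Removing cells of mixed type left no gene to count in clusters 4 and 13 and no Keap1 cKO cell in cluster 15. In cluster 14, 5 of the 7 genes had fewer than 20 UMIs over both libraries, and in cluster 15 all 7 did.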
